A study of Mus musculus with 8 samples.

Results

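In all, 7 genes were each read by 1 probe set as present in islets of AKR/J mice and close to background in islets of C57Bl/6J mice, both inbred strains. The genes were Pianp, Tmem87a, Aldh1a3, Itih1, Gm2115, Inpp4b and Rasgrf2. For Rasgrf2 and Aldh1a3, other probe sets were detected in C57Bl/6J too, so near absence describes the probe set and not the gene. A probe set, the group of short probes that reads 1 transcript on an Affymetrix array, was taken when its value was at least 50 on all 4 AKR/J arrays and at most 20 on all 4 C57Bl/6J arrays, in the linear intensities that the authors made with GCRMA. This gave 7 probe sets of 7 genes, out of 18193 genes named alone by a probe set. In all, 14 probe sets passed both thresholds. Of the 7 others, 5 belong to 3 genes whose symbols start with H2-, Serpina1 or Rab3 and were left out by the rule, 1 names several genes and 1 (1458719_at) names none. The same thresholds with the strains exchanged took 15 genes. The members were chosen by these GCRMA intensities of both strains, which are given below as a description, without a test.

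Both groups were fed a high-fat diet for 3 months, and the groups differ by strain. Each group has 4 RNA samples, and each sample combined the islets of 2 mice, so that the spread between samples is a spread between pools. Age, sex and any other diet are not given in the sources used here or were not analysed here. Array numbers follow the titles: AKR/J pools were run on arrays 1 to 4, and arrays 5 to 8 hold the C57Bl/6J pools.

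An inbred strain carries 1 fixed allele at almost every locus, so a variant in a promoter, an enhancer, a splice site or the gene's copy number can set a transcript's level in all mice of that strain. A variant inside the stretch that a probe pairs with can lower the probe's signal while the transcript level stays the same. Probe sets that lie on different stretches of a transcript read it separately, and for this reason the other probe sets of each gene are given beside the member.

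The 7 genes encode proteins of different kinds. Tmem87a encodes a membrane protein of the Golgi. Pianp encodes a single-pass membrane protein of neurons that is a ligand of the immune receptor PILR alpha. Aldh1a3 encodes a retinaldehyde dehydrogenase, which makes retinoic acid, and is known as a marker of beta cells that have lost mature identity. Itih1 encodes a heavy chain of the inter-alpha-trypsin inhibitor, a plasma protein of liver origin that binds hyaluronan. Inpp4b encodes a phosphatase of the phosphoinositide pathway that acts downstream of PI3-kinase. Rasgrf2 encodes a calcium-responsive exchange factor that activates Ras. Gm2115 is a predicted protein-coding gene, listed with the synonym Ctxnd1 in RefSeq.

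The stretches of 250 bases before the RefSeq start of 3 members are shown because these genes stand for the cases below: Tmem87a, read by a single probe set, and Gm2115 and Rasgrf2, each read by a further detected probe set. They come from the GRCm38.p6 assembly, which is C57BL/6J sequence, the strain with the low values, and are written 5′ to 3′ on the gene's strand. Capitals mark the GC box GGGCGG on either strand. RefSeq windows were at hand for 6 of the 7 genes.

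Tmem87a, chr2:120404117-120404366, minus strand: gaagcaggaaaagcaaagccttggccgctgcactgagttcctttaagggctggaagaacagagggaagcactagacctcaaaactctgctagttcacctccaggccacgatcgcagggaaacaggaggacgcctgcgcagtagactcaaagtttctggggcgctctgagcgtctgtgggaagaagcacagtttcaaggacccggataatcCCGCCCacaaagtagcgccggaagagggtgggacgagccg

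Gm2115, chr7:84528724-84528973, plus strand: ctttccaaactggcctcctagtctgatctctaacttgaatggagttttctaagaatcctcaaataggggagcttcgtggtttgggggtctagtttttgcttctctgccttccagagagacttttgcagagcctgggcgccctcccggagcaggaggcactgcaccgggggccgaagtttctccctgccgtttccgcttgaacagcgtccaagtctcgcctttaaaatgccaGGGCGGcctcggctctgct

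Rasgrf2, chr13:92131829-92132078, minus strand: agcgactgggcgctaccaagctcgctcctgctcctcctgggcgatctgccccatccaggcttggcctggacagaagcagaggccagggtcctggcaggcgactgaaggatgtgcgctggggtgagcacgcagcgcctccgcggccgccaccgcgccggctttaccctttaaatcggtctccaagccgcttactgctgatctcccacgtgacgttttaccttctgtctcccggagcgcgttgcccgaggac

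The GC box was found 1 time each in the Tmem87a and Gm2115 stretches and 0 times in that of Rasgrf2, against 32.7% of all 32851 RefSeq windows of this length holding it at least once. None of the 3 stretches held TATAAA or CCAAT on either strand, which 12.4% and 33.8% of all windows hold. The Rasgrf2 stretch had 22 CpG dinucleotides, that of Tmem87a 13 and that of Gm2115 11, with a median of 6 over all windows. The windows of Pianp, Inpp4b and Itih1, which are not shown, held no GC box. CCAAT occurred in the window of Inpp4b and in 1 of Pianp. Their CpG counts were 19 for Inpp4b, 3 for Itih1, and 13, 5 and 6 for the Pianp windows. The 3 shown stretches therefore do not stand for all members. These matches describe the C57BL/6J letters of the windows, and AKR/J sequence was not used here.

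Between 43.7% and 48.1% of the probe sets other than controls were detected per array. Islet markers were high in both strains: the summed intensity of 8 measured beta cell markers was 134445 to 143069 in AKR/J against 128665 to 135454 in C57Bl/6J, with 0 higher and 2 lower in AKR/J (Slc2a2 and Ucn3). By the MAS5-type signals, the other intensities that the authors deposited for each array, Slc2a2 stayed called and Ucn3 did not (limma adjusted p = 0.389). Alpha cell markers (1 of 3 higher, Ttr) summed to 76347 to 81640 and 70934 to 74476. Gcg and Irx2 were not called, with log2 differences of 0.008 and -0.46, so these sums do not describe the alpha cell markers as a whole. By the MAS5-type signals Ttr was not called (limma adjusted p = 0.151). Ppy, the pancreatic polypeptide gene, was 1.86-fold higher in AKR/J (limma adjusted p = 0.0340). Markers of several other cell types differed between strains. Of all 20772 tested probe sets, limma called 6.59% higher and 7.7% lower in AKR/J, and 5.08% and 5.8% by the MAS5-type signals. Acinar markers summed to 195526 to 219709 in AKR/J against 305423 to 314177 in C57Bl/6J, with 11 of 12 tested markers lower in AKR/J (limma adjusted p under the threshold of 0.05) and Rbpjl detected on no array. By the MAS5-type signals, of these 11 only Cela2a, Cuzd1, Spink1 and Ptf1a stayed called (limma adjusted p of 0.000128 to 0.0312). The rest had adjusted p of 0.0534 (Cpa1) to 0.792 (Prss2), and the log2 difference of Ctrb1 was then 0.08. Macrophage markers (7 of 10 tested lower) summed to 1813 to 2337 and 3241 to 4275, and fat cell markers (2 of 2 lower) to 2355 to 2837 and 3794 to 5308. Of these called markers, Lyz2, Tyrobp and Fabp4 were not called by the MAS5-type signals (limma adjusted p = 0.217, 0.0634 and 0.0763). Markers of dividing cells (5 of 5 higher, also by the MAS5-type signals) summed to 479 to 803 and 124 to 226. Endothelial markers (4 of 8 higher) summed to 4129 to 4783 and 3743 to 4193, overlapping between strains. Of those 4, only Ramp2 stayed called by the MAS5-type signals (limma adjusted p = 0.0106). Stromal markers (1 of 8 higher, Rgs5, and 2 lower, Dcn and Pdgfra) summed to 7868 to 9750 and 6210 to 6901. Rgs5 alone was at 4623 to 4963 and 1597 to 1958, so these sums do not describe the stromal markers as a whole. Among the others only Pdgfrb had a positive log2 difference (0.35) on the GCRMA values, and it was not called. By the MAS5-type signals Pdgfrb was called higher (log2 difference 0.65, limma adjusted p = 0.0347). Among lymphocyte and plasma cell markers 1 of 4 tested was lower, and among duct markers 1 of 2, with overlapping sums. By the MAS5-type signals that lymphocyte marker, Ptprc, was not called (limma adjusted p = 0.124), whereas Cd52 was called lower (0.0249). Of 4 tested neural and glial markers 0 were called by limma on the GCRMA values, with Sox10 and Gfap detected on no array. The 6 measured nevertheless summed to 538 to 652 and 712 to 945 without overlap. Ncam1 alone was at 381 to 504 and 541 to 687. By the MAS5-type signals Ncam1 was called lower (log2 difference -0.46, limma adjusted p = 0.0367). For the Gapdh control probe sets, 3' over 5' on the log2 scale ran from -0.33 to -0.24 on the AKR/J arrays, under the -0.22 to 0.11 of the C57Bl/6J arrays; for actin it ran from 1.23 to 1.35 and from 1.16 to 1.41, overlapping. The part of these differences in the values below was not tested. In bulk islet RNA, fewer cells of a type and less RNA per cell cannot be told apart.

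**Figure D1:**
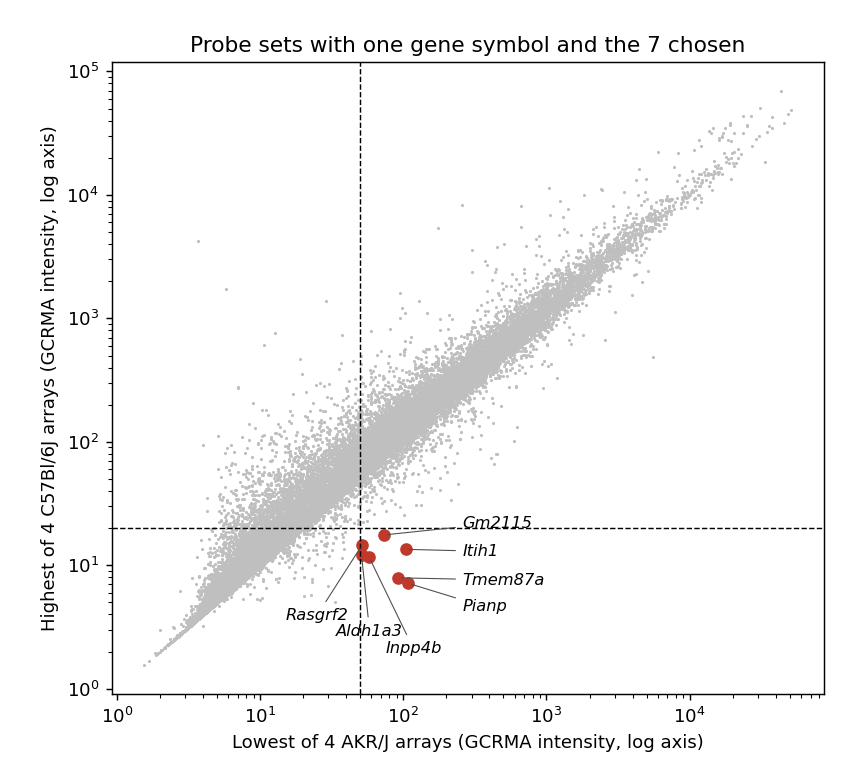
Each grey point is a probe set with 1 gene symbol (the left-out symbols are not drawn), placed by its lowest AKR/J intensity (horizontal, log axis) and its highest C57Bl/6J intensity (vertical, log axis); dashed lines mark 50 and 20. The 7 red points are the members, of which Aldh1a3 (51.1) and Rasgrf2 (51.7) lie nearest to the AKR/J threshold and Gm2115 (17.6) nearest to the C57Bl/6J threshold.

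Near the thresholds the choice was narrow on the AKR/J side. Inside it, the lowest AKR/J values were 51.1 for Aldh1a3, 51.7 for Rasgrf2 and 57.7 for Inpp4b. Just outside, they were 48.8 for 2700038G22Rik, 39.0 for Ociad1 and 38.8 for Barhl1, all with C57Bl/6J values of at most 20. On the C57Bl/6J side, the highest values inside were 17.6 for Gm2115, 14.7 for Rasgrf2 and 13.5 for Itih1. Just outside were Cks2 at 22.2, Col27a1 at 22.9 and Ppp2r2c at 25.5. The mouse gene Ifi202b, an interferon-inducible gene known to lack expression in C57BL/6 mice, was detected on all 4 AKR/J arrays and on no C57Bl/6J array. Its AKR/J intensities of 30.0, 24.2, 29.5 and 28.3 lay under the threshold of 50, so the rule did not take it.

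Detection calls, which the array software makes by comparing matched and mismatched probes, did not follow the intensities for every member. Tmem87a, Itih1 and Inpp4b were detected on all 4 AKR/J arrays and on no C57Bl/6J array. Gm2115 and Rasgrf2 were detected on 1 C57Bl/6J array each and Pianp on 2. The Aldh1a3 member was detected on 1 of 4 AKR/J arrays and on no C57Bl/6J array. In all, 6 of the 7 members passed the filter of detection on at least 4 of 8 arrays, 3 of them through the AKR/J arrays alone.

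Tmem87a, the Golgi membrane protein, was read at 163, 136, 91.7 and 154 on AKR/J arrays 1 to 4. On C57Bl/6J arrays 5 to 8 it was at 6.05, 7.76, 7.87 and 7.92. All AKR/J values stood far above all C57Bl/6J values, and AKR/J array 3 was the lowest of its strain. On the log2 scale this was 7.06 ± 0.37 against 2.88 ± 0.19 (SD, n = 4 each), 18.1-fold higher in AKR/J. The probe set was detected on 0 C57Bl/6J arrays, so this is a ratio to undetected values near background. Setting each C57Bl/6J array to no less than its lowest detected intensity left the ratio unchanged, and it is not a lower bound. Such a ratio holds on the GCRMA scale only. The deposited MAS5-type signals were 305 to 323 in AKR/J against 2.0 to 30.8 in C57Bl/6J and did not overlap either. Tmem87a has no other probe set that names it alone, so transcript level and a sequence difference under the probes cannot be told apart here.

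Itih1, the plasma protein heavy chain, was at 143, 157, 104 and 135 in AKR/J. In C57Bl/6J it was at 13.2, 13.4, 13.5 and 13.3, almost the same on each array. The AKR/J array 3 was again the lowest. The log2 values were 7.06 ± 0.25 and 3.74 ± 0.015 (SD, n = 4 each), with an AKR/J excess of 10.02-fold over undetected C57Bl/6J values. The MAS5-type signals of 162 to 226 against 3.00 to 17.6 did not overlap. Itih1 also has a single probe set. Of its family, Itih3, the gene that RefSeq lists directly beside it, was detected on no array, and Itih4 on no AKR/J array and on 2 C57Bl/6J arrays.

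Pianp, the neuronal ligand of PILR alpha, was at 169, 108, 160 and 127 in AKR/J and at 6.49, 6.29, 7.16 and 6.25 in C57Bl/6J. No value of one strain came near the other, at 7.12 ± 0.30 against 2.71 ± 0.09 on the log2 scale (SD, n = 4 each), or 21.2-fold. The size depended on the method. By the MAS5-type signals, 287 to 302 against 30.6 to 49.5, it was 8.49-fold. The probe set was detected on 2 C57Bl/6J arrays. Its other probe set, 1442066_at, was detected on none of the 8 arrays. It was at 19.1, 21.1, 17.2 and 18.2 in AKR/J and at 7.86, 7.01, 6.17 and 7.16 in C57Bl/6J, so the strains did not overlap. It was not tested under the detection filter. With no filter it passed the threshold (limma adjusted p = 0.000408; 2.21% of 45037 probe sets higher and 2.43% lower), but without detection in either strain no level or size is read from it.

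**Figure D2:**
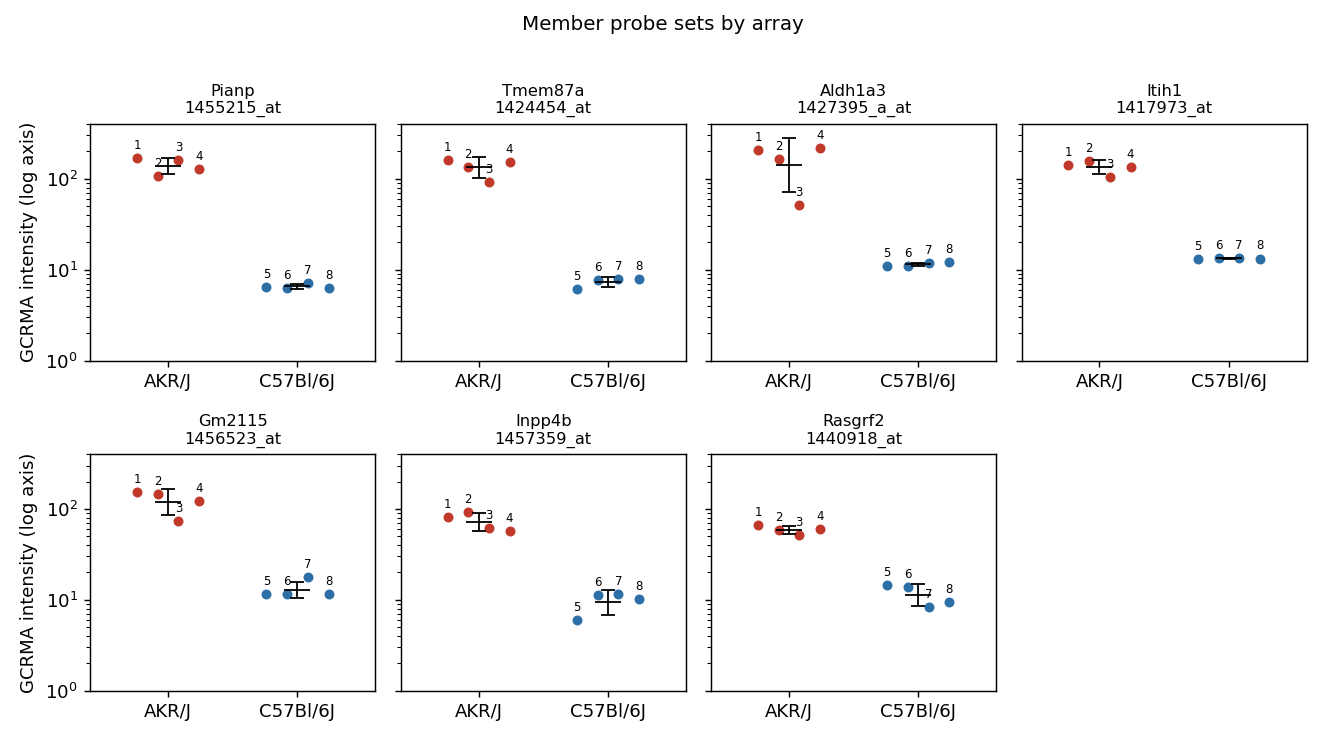
Intensity of the 7 member probe sets on each array (GCRMA, log axis), AKR/J in red and C57Bl/6J in blue with array numbers; bars are the mean and SD of 4 log2 values per strain. The AKR/J points lie between 51.1 and 220 and the C57Bl/6J points between 5.93 and 17.6; array 3 is the lowest AKR/J array for 5 of the 7.

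Aldh1a3, the retinaldehyde dehydrogenase, was read by 3 probe sets, and all were higher in AKR/J. The member probe set was at 208, 166, 51.1 and 220 in AKR/J and at 11.1, 10.96, 11.7 and 12.03 in C57Bl/6J. AKR/J array 3 was well under the other AKR/J arrays, which gave the widest spread of the members, 7.13 ± 0.99 against 3.52 ± 0.06 on the log2 scale (SD, n = 4 each). The excess was 12.3-fold over undetected C57Bl/6J values, with detection on 1 AKR/J array.

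The second Aldh1a3 probe set, 1448789_at, was detected on all 4 AKR/J and on 3 C57Bl/6J arrays. It was at 498, 564, 180 and 766 in AKR/J and at 40.6, 21.9, 27.3 and 35.2 in C57Bl/6J. These strains did not overlap, and the C57Bl/6J values lay above the threshold of 20 that defines near absence here. The log2 difference was 3.87 (SE 0.43), 14.6-fold (limma adjusted p = 0.000875; 6.59% of the 20772 tested probe sets were called higher in AKR/J), and 9.60-fold by the MAS5-type signals. Without array 3 the difference was 4.30.

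The third, 1417642_at, was at 142, 125, 62.5 and 188 in AKR/J and at 21.99, 12.4, 16.9 and 25.9 in C57Bl/6J, with detection on 4 and 3 arrays. The strains were again apart, by 2.69 on the log2 scale (SE 0.36), or 6.47-fold (limma adjusted p = 0.00216). With arrays 3, 4, 7 and 8 alone neither probe set was called (adjusted p = 0.133 and 0.175, differences of 3.58 and 2.37), whereas with arrays 1, 2, 5 and 6 alone both were (0.0270 and 0.0367, differences of 4.15 and 3.01). Those smaller fits called 0.751% of probe sets higher and 1.19% lower with arrays 3, 4, 7 and 8, and 1.82% and 3.25% with arrays 1, 2, 5 and 6. The low value of array 3 was shared by the 3 probe sets.

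Gm2115, the predicted gene, was at 153, 145, 73.4 and 122 in AKR/J and at 11.7, 11.6, 17.6 and 11.6 in C57Bl/6J. Array 3 was the lowest in AKR/J and array 7 the highest in C57Bl/6J, and the strains stood apart at 6.89 ± 0.48 and 3.69 ± 0.30 on the log2 scale (SD, n = 4 each), 9.19-fold. The MAS5-type signals gave 8.87-fold. Its other probe set, 1442595_at, was at 78.2, 78.4, 48.4 and 58.6 in AKR/J and at 13.1, 15.1, 22.6 and 23.1 in C57Bl/6J. It too did not overlap between strains, with 3.60-fold more in AKR/J than the undetected C57Bl/6J values. It was detected on 4 AKR/J and on no C57Bl/6J array, so it entered the test only through the strain where it is high, and its call (limma adjusted p = 0.00176) supports nothing.

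Rasgrf2, the Ras exchange factor, was near background in C57Bl/6J by 1 probe set and well detected there by another. Its member probe set was at 66.9, 58.9, 51.7 and 59.5 in AKR/J and at 14.7, 13.7, 8.34 and 9.45 in C57Bl/6J, which was 5.88 ± 0.15 against 3.49 ± 0.40 on the log2 scale (SD, n = 4 each), 5.26-fold. By the MAS5-type signals, 126 to 151 in AKR/J against 53.6 to 86.6 in C57Bl/6J, the same probes gave only 2.12-fold, still without overlap.

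The Rasgrf2 probe set 1440849_at was detected on all 8 arrays. It was at 1441, 1465, 1068 and 1268 in AKR/J and at 285, 346, 428 and 400 in C57Bl/6J. The transcript was thus detected in both strains, at 10.34 ± 0.21 and 8.49 ± 0.26 on the log2 scale (SD, n = 4 each), and 3.61-fold higher in AKR/J (SE 0.15 of the log2 difference of 1.85; limma adjusted p = 0.000192). The third Rasgrf2 probe set, 1421621_at, was detected on no array and was at 60.9, 30.9, 24.8 and 48.6 against 20.7, 16.9, 9.71 and 24.6. The lowest AKR/J and the highest C57Bl/6J value nearly met, and with no filter it was not called (adjusted p = 0.177), though it was by the MAS5-type signals with no filter (adjusted p = 0.0456; 0.715% of probe sets called higher and 1.09% lower).

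Inpp4b, the phosphoinositide phosphatase, was at 81.0, 92.2, 61.8 and 57.7 in AKR/J and at 5.93, 11.3, 11.6 and 10.1 in C57Bl/6J. No AKR/J value came near a C57Bl/6J value, and array 4 was the lowest AKR/J array. The log2 values were 6.17 ± 0.32 and 3.24 ± 0.45 (SD, n = 4 each), with an AKR/J excess of 7.62-fold over undetected C57Bl/6J values on the GCRMA scale. That size does not carry over to the MAS5-type signals of 86.6 to 150 against 16.8 to 28.7, whose ratio was 5.16. Its other probe set, 1441416_at, carried no detected signal on any array, with intensities of 4.82 to 4.86 in AKR/J against 4.72 to 4.83 in C57Bl/6J that overlapped. With no filter it was not called (limma adjusted p = 0.383). It gives no second reading of the Inpp4b difference.

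**Figure D3:**
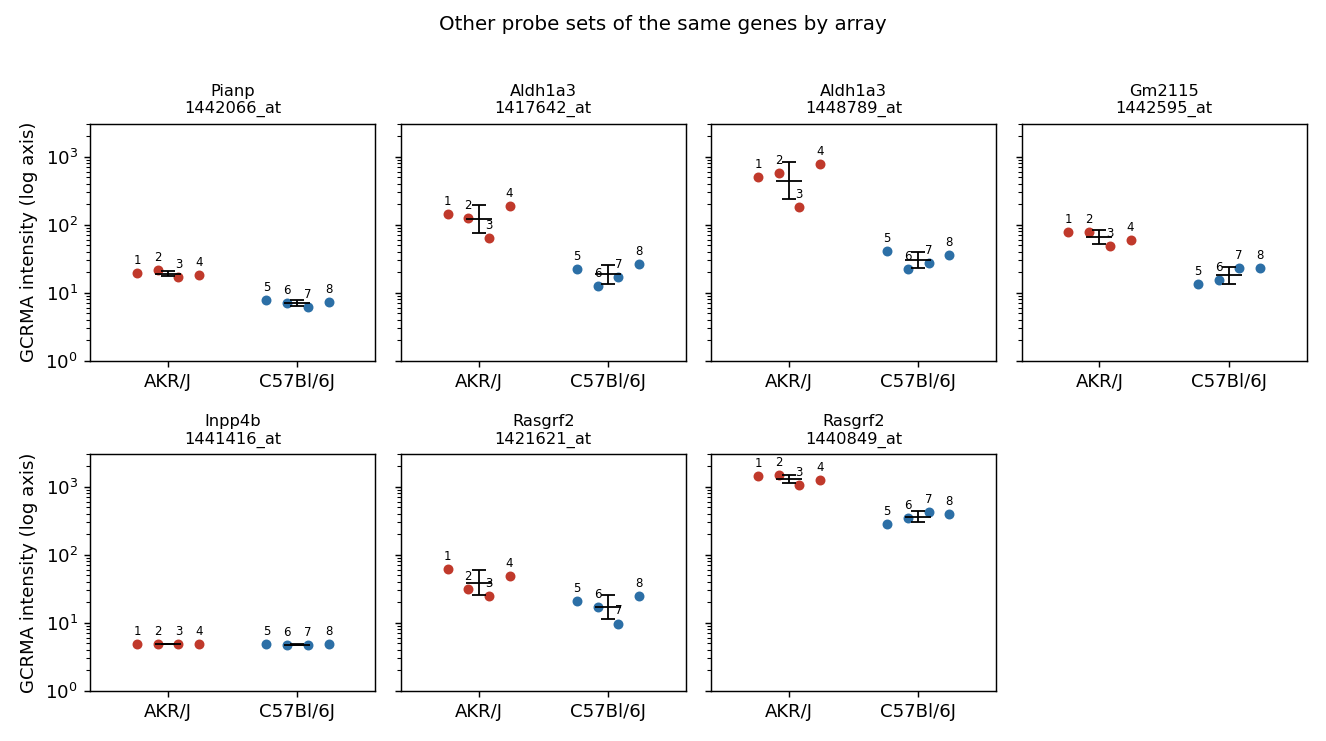
Intensity of the 7 other probe sets of the member genes on each array (GCRMA, log axis), AKR/J in red and C57Bl/6J in blue with array numbers; bars are the mean and SD of 4 log2 values per strain. Both strains stand well above background for Rasgrf2 1440849_at, and those of Inpp4b 1441416_at coincide near 4.8.

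Across the members, 5 of 7 genes had another probe set, 7 in all. Of these, 3 were detected in both strains and passed the detection filter, 2 of Aldh1a3 and 1 of Rasgrf2, and all 3 were called higher in AKR/J without overlap. By limma, 6.59% of the 20772 tested probe sets were called higher and 7.7% lower. Over the same probe sets, 12.3% were higher in AKR/J without overlap between strains. A further other probe set, of Gm2115, passed the filter through AKR/J alone. They were measured on the same RNA as the members, so they are second readings of the same pools. Since the same contrast on the same arrays chose the genes, their p-values describe these probe sets and are no independent support for the members. None was called lower by limma (0 at an unadjusted p under 0.05, and 0 by the MAS5-type signals, which called these 4 higher, where 5.08% of all probe sets were higher and 5.8% lower).

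AKR/J array 3 was the lowest AKR/J array for 5 of 7 members and for 6 of 7 of their other probe sets. Over all tested probe sets it was the lowest for 22.3%, and for 34.2% of the 79 tested probe sets at least 4-fold higher in AKR/J. The median member lay 0.35 under the AKR/J mean on that array, on the log2 scale, while the median tested probe set lay 0.01 above it. Array 3 also had the highest AKR/J sums of acinar markers (219709) and of dividing cell markers (803). The same held for delta cell, duct, endothelial, neural and glial and fat cell markers and for Ppy. It did not hold for beta cell, alpha cell, macrophage, stromal or lymphocyte and plasma cell markers. The part of any of these in the members' values was not tested.

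Genes near the members were compared to see whether whole neighbourhoods differed. For each member, the nearest 2 genes on each side in RefSeq with a tested probe set were taken, 28 genes in all. To reach them, from 0 (Ganc, near Tmem87a) to 14 (Tbc1d9, near Inpp4b) RefSeq genes were passed over, so some are not adjacent. The median log2 difference of the 28 was 0.01, against 0.00012 for all 10891 genes tested. Of the 28, 2 were called higher in AKR/J and 1 lower, where 7.79% and 8.53% of all genes were. These shares are near the background.

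The exception in size was Zcchc9, which encodes a zinc finger protein and lies close to Rasgrf2 with only Ckmt2 between them. It was at 17.3, 12.8, 25.6 and 21.1 in AKR/J and at 97.7, 113, 117 and 115 in C57Bl/6J. It therefore went the other way from Rasgrf2, without overlap, with 5.94-fold more in C57Bl/6J (log2 difference -2.57, SE 0.20, limma adjusted p = 0.000135) and by a log2 difference of -1.40 with the MAS5-type signals (adjusted p = 0.00641). Zcchc9 has a single probe set, with the same limit as Tmem87a. Arnt2, a transcription factor gene near Gm2115, was 1.74-fold higher in AKR/J (limma adjusted p = 0.00178). Its intensities were 145, 138, 167 and 165 in AKR/J and 80.9, 80.4, 95.7 and 97.6 in C57Bl/6J, without overlap. Mlf2, near Pianp, was 1.30-fold higher (limma adjusted p = 0.0106), and not called by the MAS5-type signals (adjusted p = 0.118). The 4 tested neighbours each of Tmem87a, Aldh1a3, Itih1 and Inpp4b were not called by limma on the GCRMA values. With the MAS5-type signals, Usp38 and Zfp330, both neighbours of Inpp4b, were called lower in AKR/J. Their log2 differences were then -1.22 and -0.63 (limma adjusted p = 0.00107 and 0.0311). On the GCRMA values these were -0.67 and 0.22 (limma adjusted p = 0.0776 and 0.348).

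**Figure D4:**
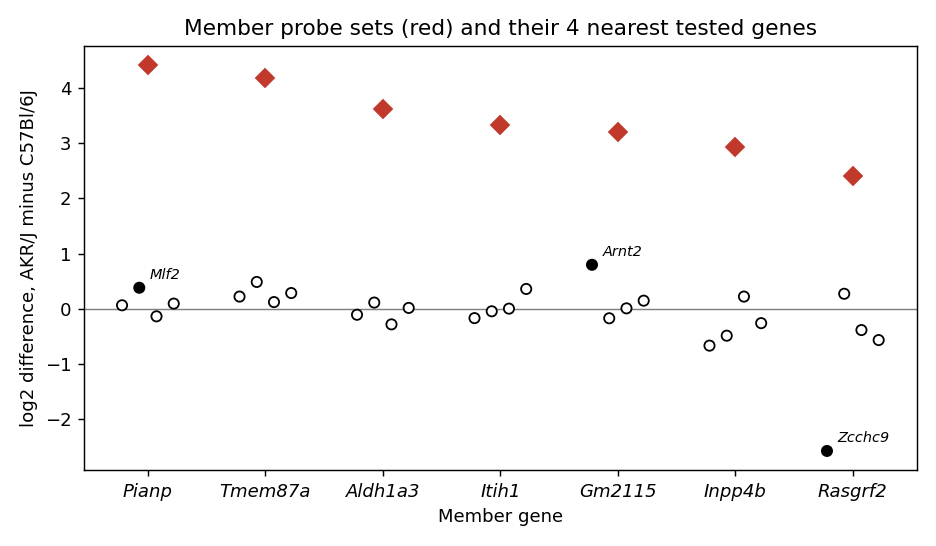
Log2 difference (AKR/J minus C57Bl/6J) of the 7 member probe sets (red diamonds, which the rule chose) and of the 4 nearest tested genes of each (circles, filled where limma's adjusted p was under 0.05). Of 28 neighbours, Mlf2, Arnt2 and Zcchc9 are filled; Zcchc9 lies at -2.57, opposite to Rasgrf2 at 2.39.

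Of the relatives and partners of the members, taken by symbol, none of the tested ones was called in the members' direction. There were 22 probe sets of 15 genes, 14 of them tested: genes of the Tmem87, Aldh1a, Itih, Ctxn, Inpp4 and Rasgrf families and, for Pianp, the receptor genes Pilra and Pilrb1, which are not of its family. None was called higher in AKR/J (0 by limma at an unadjusted p under 0.05, and 0 with the MAS5-type signals), and 3 were called lower, where 6.59% and 7.7% of all tested probe sets were called. Their median log2 difference was -0.18, against -0.01 over all probe sets tested.

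The 3 lower ones were in the families of Aldh1a3 and Itih1. Aldh1a7, a related aldehyde dehydrogenase, was at 15.2, 10.2, 18.2 and 11.2 in AKR/J and at 58.4, 33.6, 103 and 72.1 in C57Bl/6J, an excess of 4.64-fold in the latter (limma adjusted p = 0.00417). Aldh1a1, another retinaldehyde dehydrogenase, was detected on 0 AKR/J and 4 C57Bl/6J arrays. It entered the test only through C57Bl/6J, where it is high. The C57Bl/6J excess was 2.28-fold over undetected AKR/J values on the GCRMA scale (limma adjusted p = 0.0154). By the MAS5-type signals the strains overlapped and it was not called (adjusted p = 0.153, log2 difference -0.80). These are the opposite of the direction of Aldh1a3. Itih5, a further heavy chain gene, was at 47.3, 16.2, 23.3 and 33.0 in AKR/J and at 67.6, 104, 176 and 104 in C57Bl/6J, 3.85-fold higher in C57Bl/6J by probe set 1429159_at (limma adjusted p = 0.0123). By the MAS5-type signals its log2 difference was -0.93 in place of -1.94. The summed GCRMA intensities of macrophage, fat and acinar markers were higher in C57Bl/6J on the same arrays, as given above. The part of these markers in the 3 values was not tested.

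The closest relatives of Tmem87a, Rasgrf2 and Inpp4b did not pass the threshold. Tmem87b was at 7.11 ± 0.23 in AKR/J, against 7.32 ± 0.18 in C57Bl/6J, by probe set 1433740_at (SD of log2 values, n = 4 each; limma adjusted p = 0.343), with log2 differences of -0.08 and -0.07 by its other probe sets. Rasgrf1, the relative of Rasgrf2, differed by 0.26, -0.25 and -0.25 over 3 probe sets (adjusted p of 0.295 to 0.427). Inpp4a differed by -0.24 by its tested probe set (adjusted p = 0.345). That these 7 tested probe sets did not pass does not show that the strains are alike.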

How the data were processed

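Islet RNA of 2 mouse strains was measured on Affymetrix expression arrays, 4 pools per strain, grouped by the strain in their titles. The authors' value table holds GCRMA intensity values, not log-transformed, per the submitters' processing notes; the GCRMA version was not stated there. GCRMA corrects background by probe sequence, and probe sets without signal settle near fixed low values. For each array, the authors deposited a MAS5-type intensity with a detection call and its p-value, per the file headers; a probe set counted as detected where that p was under 0.05. Values were taken to log2 and not normalized again.

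Control probe sets were left out. GEO's platform annotation gave 1 gene symbol to 34945 of the others, of which 34741 matched a RefSeq gene (GRCm38.p6), used for neighbours. AKR/J minus C57Bl/6J was fitted with limma's lmFit and eBayes to the 20772 probe sets with detection on 4 or more of the 8 arrays. Benjamini-Hochberg adjustment ran over all of them, threshold 0.05. Such p-values weigh the strain difference against the spread between pools of a strain, which may be technical. The fit was tested on simulated data. Members, lists and tests were chosen with earlier results of these data known. All 7 members are named; other genes named are those with values nearest the thresholds, called neighbours, relatives by symbol and a gene known for a strain allele. Alternatives covered the filter, the MAS5-type signals (floor at the 5th percentile, quantile normalized), normalization, variance model, probe set type, arrays and thresholds. R 4.3.3 with limma 3.58.1 and Python 3.11.15 with matplotlib 3.10.9 were used.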

Additional observations from a re-analysis of the deposited data

Results flagged for a closer look

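2 of 28 groups of 4 arrays held a value far from the others, where chance gives about 1 in 20 groups. Tmem87a was at 6.05 on C57Bl/6J array 5, under the other 3 arrays of that strain at 7.76 to 7.92. Gm2115 was at 17.6 on C57Bl/6J array 7, above the other 3 at 11.6 to 11.7, and was the C57Bl/6J value nearest to the threshold of 20. Both values lie near background.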

How the results depend on the processing

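No paired analysis was possible because the strains share no replicate number. The list depends on its thresholds. The 7 probe sets became 16 with at least 40 and at most 25, 1 (Pianp) with at least 100 and at most 10, 12 with the left-out symbols kept, and 3 (Tmem87a, Itih1 and Inpp4b) when detection on every AKR/J and no C57Bl/6J array was required as well. Leaving out each array gave 7 to 9, which by construction include the 7. The 4 called other probe sets became 1 (Rasgrf2, of 1 gene in place of 3) when detection on all 8 arrays was required, and 2 with arrays 3, 4, 7 and 8 alone. They were 4 with each array left out, for 3 genes each time. Both the 4 and the 2 include Gm2115 1442595_at, which passed the filter through AKR/J alone and whose call supports nothing. Called neighbours, 2 higher and 1 lower, were 2 lower with detection on all 8 arrays, 1 higher and 3 lower (Zcchc9, Usp38 and Zfp330) with the MAS5-type signals, 1 and 2 with these and no filter (an alternative chosen after seeing the data), 1 higher without _x_at and _s_at probe sets, 1 and 2 with arrays 1, 2, 5 and 6, and 1 higher with arrays 3, 4, 7 and 8. Leaving out each array gave 2 to 3 higher and 1 to 2 lower. Over all probe sets, 1369 were higher and 1599 lower in AKR/J. This fell to 379 and 675 with arrays 1, 2, 5 and 6, to 156 and 247 with arrays 3, 4, 7 and 8 (2 arrays per strain), and to 322 and 490 with the MAS5-type signals and no filter; leaving out each array gave 920 to 1254 and 1064 to 1566. The number of arrays limits the precision. C57Bl/6J values of the members lie near background, so their fold sizes depend on how each method treats it, for example 2.12-fold by the MAS5-type signals and 5.26-fold by GCRMA for Rasgrf2.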

Other observations

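The probe set 1458719_at, which the annotation gives no gene, passed both thresholds of the rule. It was at 269, 232, 220 and 200 on AKR/J arrays 1 to 4 and at 13.98, 11.5, 9.60 and 8.55 on C57Bl/6J arrays 5 to 8, so the strains stood far apart. This probe set was detected on 4 AKR/J and on 2 C57Bl/6J arrays. Its MAS5-type signals were 225.7 to 270.9 in AKR/J against 7.9 to 36.5 in C57Bl/6J. Loosening the thresholds to 40 and 25 added a second probe set of Gm2115, the one described above, and probe sets of 2700038G22Rik, Cks2, Col27a1, Mphosph9, Ocel1, Senp1, Supt16 and Tcf19.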
